A study of Mus musculus with 6 samples.

Results

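The cells described here are the B lymphocytes of mouse kidney, taken from 3 single-cell RNA libraries that differ in how the kidney was broken down into single cells. A cell was counted as a B cell when it held at least 3 UMIs (unique molecular identifiers, each standing for 1 captured RNA molecule) summed over Cd79a, Cd79b and Ms4a1, no UMI of Cd3d, Cd3e or Cd3g, and at most 2 UMIs summed over C1qa, C1qb and C1qc. It also had to show between 200 and 3000 genes and at most 50% mitochondrial UMIs. This gave 1175 B cells of 24212 kidney cells that passed the limits on genes and mitochondrial share, of 34034 deposited kidney cells and of 58561 cells in all 6 libraries of the series. Because the B cells were selected on measured values of those genes, the levels of the 9 genes of the rule are given as a description.

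The study compared a microfluidic tissue dissociation platform with a conventional digest. All 3 kidney libraries came from male C57BL/6 mice aged 12 weeks, with kidneys minced and digested in type I collagenase. The control was digested for 60 min and broken up by pipetting and vortexing, whereas the platform libraries held cells collected from a digestion device at the 15 min and the 60 min interval and passed 1 time through a combined dissociation and filter device. In interval operation the cells freed so far are flushed out and the remaining tissue is digested further, so that digestion time and order of release cannot be told apart between the 2 platform libraries. All suspensions were treated with DNase and red cell lysis buffer and sorted by flow cytometry for cells that excluded a dead-cell dye. Each condition is 1 library. Per the study's reporting summary, control and device conditions of a replicate used tissue of a single mouse, while the labels of these libraries do not name the animal. No test between conditions was therefore possible: the intervals below are 95% intervals that cover counting error only, and no difference has a replicate check.

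B cells are lymphocytes that carry a membrane immunoglobulin as their antigen receptor. The immunoglobulin signals through the paired chains CD79A and CD79B, and CD20 (Ms4a1) and LY6D mark the mature lineage. Resting B cells circulate through blood, lymph and tissue, present antigen on MHC class II, and after activation may become germinal centre cells or antibody-secreting plasma cells. Lymphocytes respond quickly to handling, and 2 gene programmes are known for this. The heat shock chaperones protect proteins from misfolding. The immediate early genes, many of them transcription factors, are induced soon after a signal, some within minutes. The list used for them here also holds surface genes such as Cd69 and Cd83.

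The cells of the gate carried B lineage genes that were not part of the rule. At least 1 UMI of Ly6d or of Pax5, the transcription factor that maintains B cell identity, was found in 1103 of the 1175 cells, or 93.9%. At the edge of the rule, 71.4% of the 21 cells with exactly 3 gate UMIs held such a UMI, against 6 of the 12 cells with 2 gate UMIs and 8.89% of the 180 cells with 1, both just outside. The median cell held 14 gate UMIs in the control, 21 in the 15 min library and 13 in the 60 min library. Ly6d alone was detected in 89.4% of B cells (61.2% when every cell was thinned to 1000 UMIs, which left out 19 B cells). In proximal tubule cells, which should lack it, the share was 0.325% (0.0625% thinned), with median depths of 3630 UMIs in B cells and 6598 in proximal tubule cells. Here and below, these cells drew at least 1% of their UMIs from a proximal tubule gene list without Kap. They also held no UMI of Ptprc (CD45) or of the Cd3 genes and at most 2 C1q UMIs. Leaving out cells with Ptprc removes tubule cells that hold leukocyte RNA, so the low shares follow in part from this choice. Cd79a, Cd79b and Ms4a1 are genes of the rule, so their detection in B cells follows from the selection and is only a description. They were found in 89.2, 57.0 and 45.2% of thinned B cells and in 0.141, 0.0703 and 0.0469% of thinned proximal tubule cells.

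Set beside the 733 T cells of the same libraries (at least 3 Cd3d, Cd3e and Cd3g UMIs and no gate UMI), the B cells were highest by ratio in Igkc, the kappa light chain, with 20218 against 8.83 CPM (UMIs per 1000000 UMIs summed over the cells). Ly6d followed with 1302 against 0.245 CPM. Ebf1, a transcription factor of early B cell commitment, stood at 1742 against 3.19 CPM, and Fcmr, the IgM receptor, at 659 against 0.982 CPM. Fcer2a (CD23) reached 348 CPM in B cells and 0 of its UMIs were in T cells. H2-DMb2, a chaperone of peptide loading, had 422 against 0.245 CPM, and Fcrla, an intracellular Fc receptor-like protein, 249 CPM against none. In the other direction T cell receptor and costimulatory genes led, with Trbc2 at 2.69 CPM in B cells and 1397 in T cells, Cxcr6 at 0.621 and 525 CPM, and Icos at 0 and 312 CPM. The rule itself set Cd3d, Cd3e and Cd3g to 0, and the T cell list, which holds them, stood at 36.0, 9.69 and 20.2 CPM in the B cells of the control, 15 min and 60 min libraries.

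The B cells were shallow and even in depth. Their UMIs summed to 1222211 in the control, 1032397 in the 15 min library and 2575852 in the 60 min library, where 3 UMIs, taken as the floor for a gene at 0, amount to 2.45, 2.91 and 1.16 CPM. The median B cell held 3592, 3627 and 3671 UMIs from 1248, 1336 and 1277 genes. Median mitochondrial shares were 6.58, 6.13 and 6.20% in B cells, while over all kept cells they were 7.38, 20.4 and 8.59%. The libraries shared 53 cell barcodes (control and 15 min), 93 (control and 60 min) and 211 (15 and 60 min). In 0 of these cases were both cells B cells, and 7 B cells shared a barcode with some cell of another library.

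B cells made up a smaller part of the 15 min library than of either 60 min library. There were 307 B cells among 5886 kept cells in the control, 5.22% (exact binomial interval 4.66 to 5.81%). The 15 min interval gave 245 among 8390, 2.92% (2.57 to 3.30%). The later interval gave 623 among 9936, 6.27% (5.80 to 6.76%). The difference of the 15 min share from that of the control was −2.30 percentage points (Newcombe interval −2.98 to −1.63), a ratio of 0.560 (0.471 to 0.664). The 60 min share was 1.05 points higher than the control's (0.300 to 1.79), a ratio of 1.20 (1.05 to 1.38), and 2.15 times that at 15 min (1.85 to 2.50). The intervals of the 15 min and the control shares do not overlap, and those of the control and the 60 min shares touch. With the mitochondrial limit set at 25% the share at 15 min was 4.16% and the ratio to the control 0.718.

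Relative to other leukocytes the order of the libraries differed. The control held 1.81 B cells per T cell (1.49 to 2.19), the 15 min library 2.09 (1.67 to 2.63) and the 60 min library 1.40 (1.23 to 1.58). The first pair of intervals overlap, while the 60 min interval lies below that at 15 min. Per macrophage (at least 10 C1q UMIs, at most 2 gate UMIs and no Cd3 UMI), the control had 0.390 B cells (0.341 to 0.446), the 15 min library 1.96 (1.57 to 2.45) and the 60 min library 0.434 (0.395 to 0.477). The 15 min library held 245 B cells and 125 macrophages, whereas the control held 307 and 787 and the 60 min library 623 and 1435. B cells thus outnumbered macrophages at 15 min and were outnumbered in both other libraries.

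**Figure D1:**
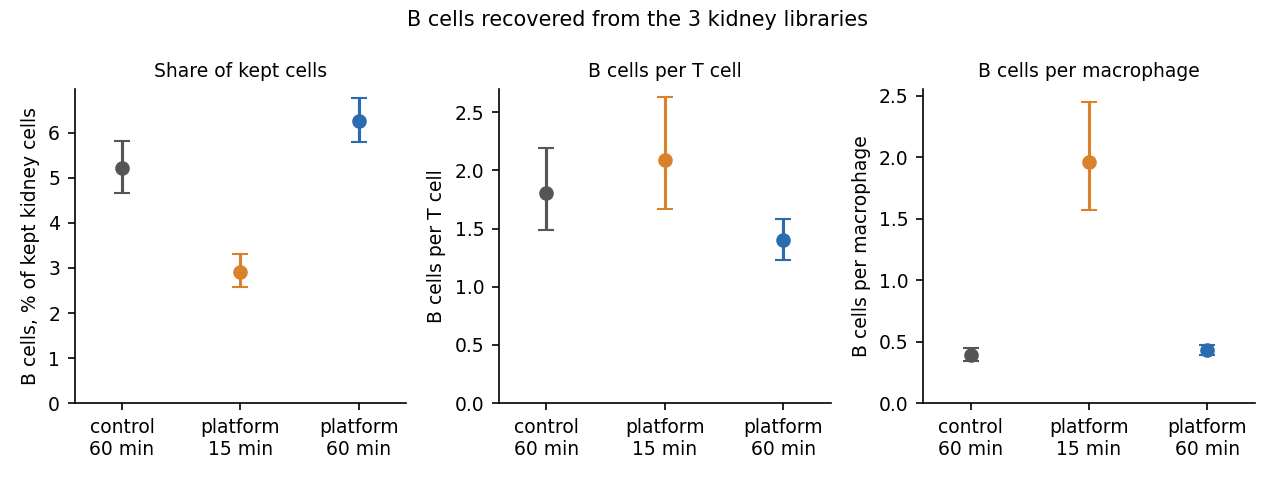
B cells as a percentage of kept kidney cells, per T cell and per macrophage, in the control and the 2 platform libraries; points are 1 library each and bars are exact 95% intervals for counting error. The share is lowest at 15 min (2.92%), while the number of B cells per macrophage is highest there (1.96).

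The genes of the B cell antigen receptor complex were read in all 3 libraries. Cd79a stood at 2391 CPM in the control, 2896 in the 15 min library and 2128 in the 60 min library, and Cd79b, its partner, at 1024, 1652 and 722 CPM. Ms4a1 read 589.9, 842 and 528 CPM. These are genes of the rule and the order is a description. In GRCm38 Cd79a lies at chr7:24897381-24902197 (plus strand), Cd79b at chr11:106311341-106314762 and Ms4a1 at chr19:11249675-11266241 (both minus strand). Outside the rule, Cd37, a tetraspanin of lymphocytes, stood at 704, 939 and 576 CPM. Bank1, a scaffold that links the receptor to calcium release, was at 379.6, 525 and 375 CPM. In these 5 genes the 15 min value was the highest of the 3, whereas Lyn, a kinase of the receptor, had 218, 183 and 188 CPM and Blk, a related kinase, 97.4, 94.9 and 92.8 CPM. Over the 18 genes of the receptor signalling list, all measured (at least 50 UMIs in the 2 libraries compared), 0 were past 2-fold in either direction between 15 min and control, and their median log2 ratio was 0.24, beside 0.06 over all 4615 genes measured. Of all genes in that comparison 2.47% were past 2-fold higher and 2.43% past 2-fold lower. Between 60 min and control 0 of the 18 were past 2-fold, with a median of −0.06, against 2.08% higher and 0.758% lower among 6065 genes (median −0.04). The single member past 2-fold in any pair was Cd79b, lower at 60 min than at 15 min by 1.19 on the log2 scale (log2 ratio −1.19). Cd79b is a gene of the rule, so this call is a description. In that pair 4.19% of 5991 genes were past 2-fold lower and 4.72% higher.

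Surface genes outside the receptor complex did not share an order. Ly6d stood at 1287, 1678 and 1158 CPM in control, 15 min and 60 min, a ratio of 1.30 for 15 min over control (1.22 to 1.40). Cd52, a small glycoprotein of lymphocytes, stood at 1595, 1962 and 1103 CPM. Fcer2a, which marks follicular B cells, differed little, with 354, 324 and 355 CPM. Cd86, a costimulatory ligand, was lowest at 15 min, with 128, 71.7 and 85.4 CPM, as was Il21r, the interleukin 21 receptor, with 124, 71.7 and 99.4 CPM. Of the 15 surface genes measured, 0 were past 2-fold between 15 min and control (2.47% of all genes higher and 2.43% lower). Between 60 min and control 0 were past 2-fold (2.08% of all genes higher and 0.758% lower). From 15 to 60 min 1 was past 2-fold higher (4.72% of all genes). These counts are near the shares over all genes. The median log2 ratio at 15 min over control was 0.16.

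Transcription factors of the lineage were close to level. Ebf1 stood at 1804, 1652 and 1749 CPM and Klf2, which keeps lymphocytes quiescent and circulating, at 2291, 2395 and 2466 CPM. Mef2c, a factor of B cell survival after receptor signals, was at 927, 1012 and 1128 CPM, and Ets1 at 589, 523 and 735 CPM. Pax5, with 189, 201 and 199.5 CPM, had overlapping counting intervals. Of the 15 members, 1 was past 2-fold lower at 15 min than in the control (2.43% of all genes): Irf4, a factor that activated B cells induce, at 92.5 CPM in the control, 40.7 in the 15 min library and 134 in the 60 min library. Between 60 and 15 min Irf4 was past 2-fold higher (4.72% of all genes), while Pou2f2 (376 at 15 min and 182 CPM at 60 min) and Bcl11a (158 and 70.7 CPM) were past 2-fold lower (4.19% of all genes). These 3 genes, like every list member named below because it passed 2-fold, were picked after their values were seen.

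Antigen presentation genes were high in every library and differed little. Cd74, the invariant chain of MHC class II, had 12909, 14702 and 12399.8 CPM, and H2-Aa, a class II alpha chain, 3657, 3631 and 3488 CPM. H2-Ab1 stood at 3607, 3271 and 3472 CPM and H2-Eb1 at 3184, 2945 and 3117 CPM. None of the 11 class II list genes was past 2-fold in any of the 3 pairs, and their median log2 ratios were 0.09, −0.05 and −0.25 for 15 min over control, 60 min over control and 60 over 15 min. Over all genes 0.758 to 4.72% were past 2-fold in 1 direction of a pair. After thinning, a Cd74 UMI was found in 99.7, 100 and 99.8% of B cells, against 5.10% of proximal tubule cells.

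Among migration genes, both platform libraries lay above the control in Gpr183 and Cxcr4. Gpr183, the oxysterol receptor that positions B cells in follicles, had 233, 408 and 418 CPM, a ratio to the control of 1.75 at 15 min and of 1.79 at 60 min (1.57 to 2.05 for the latter). Cxcr4, the receptor for CXCL12, had 279.8, 414 and 395 CPM. Ccr7, which guides cells to lymph nodes, had 587, 633 and 710.1 CPM. None of the 3 genes reached 2-fold. The single member past 2-fold between 60 min and control was S1pr4, a sphingosine phosphate receptor, with 96.5, 67.8 and 42.7 CPM (0.758% of all genes were past 2-fold lower).

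**Figure D2:**
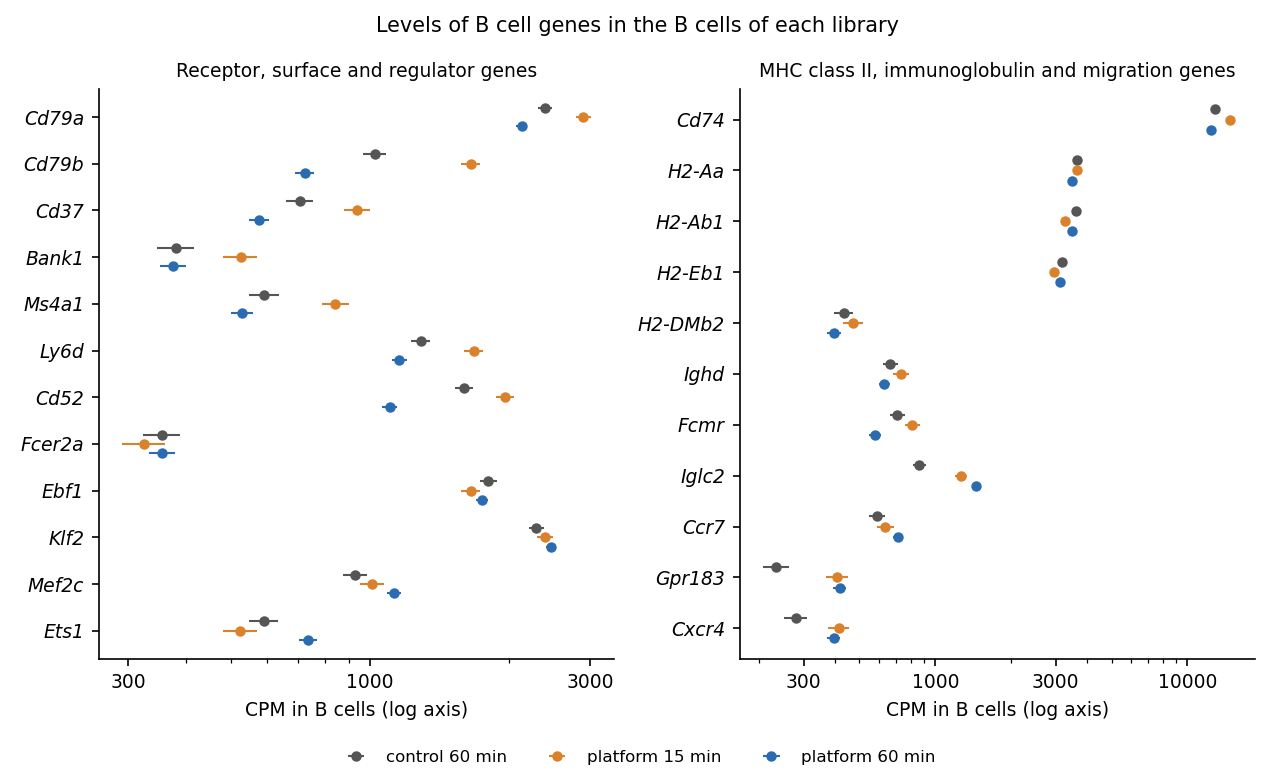
Levels of 23 B cell genes in CPM (log axis) over the summed B cells of each library, with exact Poisson 95% intervals for counting error; 1 point is 1 library. Cd79b, Cd37, Ms4a1, Ly6d and Cd52 are highest at 15 min (Cd79b at 1652 CPM) and lowest at 60 min (722 CPM), and the class II genes lie close together.

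Most of these cells carried the genes of naive B cells. An Ighm UMI, the heavy chain of IgM, was found in 304 of 307 control cells, 245 of 245 cells at 15 min and 619 of 623 at 60 min. Ighd, the IgD heavy chain that marks cells before class switching, was found in 257, 211 and 529 of them. In all, 993 of 1175 cells held both. Ighg1, Ighg2b, Ighg2c, Ighg3 and Ighe, the switched isotypes on the list other than IgA, were at 0 UMIs in every library, which allows up to 2.45, 2.91 and 1.16 CPM. Igha was seen in 24 cells, but 1 cell held 99.1% of its UMIs.

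Most genes of rare or immature subsets were at or near 0. Rag1, Rag2, Dntt and Igll1, which act in bone marrow precursors, had 0 UMIs in all 1175 cells, and 0 of 1175 allows a share of cells with a UMI of up to 0.255%. Vpreb3, retained in recently formed B cells, stood at 181, 256 and 172 CPM, and Cd93, a marker of transitional cells, at 18.0, 14.5 and 33.4 CPM. Without the cells that held other types' genes or Jchain (described below), Cd93 stood at 18.4, 13.7 and 20.4 CPM. Of the germinal centre genes, Mki67, a proliferation marker, had 7 UMIs in all, in 0.426% of cells. Bcl6, a repressor that germinal centre cells need, had 7, 27 and 57 UMIs, or 5.73, 26.2 and 22.1 CPM, and was past 2-fold higher at 60 min than in the control as the 1 gene of that list measured (2.08% of all genes). Cd5, which marks B-1a cells, was found in 0.170% of cells. Marginal zone genes were present at modest levels, with Cr2 (CD21) at 66.3, 82.3 and 60.2 CPM and Cd1d1 at 19.6, 21.3 and 14.4 CPM, and Zbtb20, on the list of age-associated B cells, at 137, 146 and 146 CPM. Tbx21 and Itgax, the defining genes of that list, had 3 and 5 UMIs in all.

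The shares of lambda cells in the 3 libraries lay close together. A cell was called lambda when its UMIs of Iglc1, Iglc2 and Iglc3 outnumbered those of Igkc, among cells with at least 3 light chain UMIs. By this rule 27 of 304 control cells were lambda, 8.88% (5.93 to 12.7%), 18 of 245 at 15 min, 7.35% (4.41 to 11.4%), and 50 of 621 at 60 min, 8.05% (6.03 to 10.5%). The 3 intervals overlap. Kappa and lambda were not cleanly apart in these counts: the median kappa cell took 13.5% of its light chain UMIs from lambda genes, and 837 of 1175 cells held at least 3 UMIs of each. With lambda required to reach 90% of light chain UMIs, the shares were 4.61, 4.08 and 4.03%. Iglc2 and Iglc3 are near-identical in sequence, so the split between them is uncertain.

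The receptor repertoire was broad as far as these 3′ counts reach. A heavy chain variable gene was seen in 238 cells (20.3%), spread over 71 genes, and in 236 of these cells it was a single gene. The most frequent, Ighv1-26, was in 16 cells, followed by Ighv1-64 in 13 and Ighv1-81 in 10. Kappa variable genes were seen in 272 cells (23.1%) and came from 79 genes, led by Igkv1-117 in 20 cells and Igkv1-135 in 18. Lambda variable genes were seen in 85 cells, with Iglv3 in 50 and Iglv1 in 39. No variable gene was found in more than 50 cells. These genes are short and alike, so reads may be split between copies.

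Within the gate, 5 cells differed sharply from all others by their immunoglobulin content. The variance-to-mean ratio over thinned B cells was highest for Igha (121), followed among immunoglobulin genes by Igkc, then by Jchain (65.3), the chain that joins IgM and IgA polymers. The Jchain UMIs were concentrated: 5 cells with at least 100 of them, a threshold set after the values were seen, held 99.8% of all 6575, and the highest count among the other cells was 11. They were 1 control cell with 383 Jchain UMIs, 1 cell at 15 min with 628, and 3 cells at 60 min with 2107, 2003 and 1439. Immunoglobulin genes took 72.0, 35.2, 54.3, 54.1 and 65.6% of the UMIs of these cells. Their heavy chain was Ighm in 4, with 4597, 833, 6259 and 4777 UMIs, and Igha in the other, with 3074 UMIs and 0 of Ighm.

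These 5 cells also held the secretory genes of the plasma cell list and little RNA of several mature B cell genes. Mzb1, a chaperone of antibody assembly, had 24, 11, 43, 25 and 34 UMIs, and Txndc5, a disulfide isomerase of the endoplasmic reticulum, 39, 7, 32, 63 and 38. Pax5 and Ighd had 0 UMIs in all 5, and Ms4a1 had 1 UMI in total, while Ly6d had 63, 4 and 3 in the 60 min cells and 0 in the other two. They held 10, 5, 16, 14 and 16 UMIs of Cd79a and 7, 1, 4, 8 and 4 of Cd79b, which met the rule. The cell at 15 min also held 689 UMIs of Kap, a proximal tubule gene, against 3 to 8 in the others. These few cells set the pooled level of the immunoglobulin genes: in the control they held 69.1% of all Igkc UMIs and 66.7% of Ighm UMIs, at 15 min 27.7 and 25.9%, and at 60 min 61.8 and 67.7%. Pooled Igkc was 24914, 14249 and 20382 CPM in the control, 15 min and 60 min libraries, and pooled Ighm 5642, 3119 and 6328 CPM. Without those 5 cells and the cells with many UMIs of other cell types (described below), Igkc was 8412, 11944 and 8682 CPM and Ighm 2064, 2595 and 2267 CPM. The order of the libraries therefore turned, from lowest to highest at 15 min. The median cell held 27, 42 and 29 Igkc UMIs and 6, 8 and 7 Ighm UMIs.

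**Figure D3:**
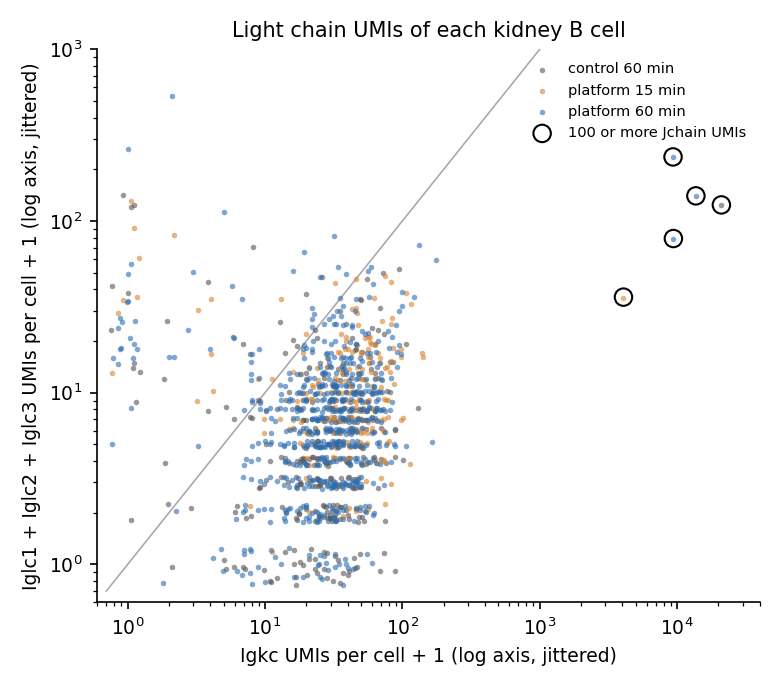
Igkc against summed Iglc1, Iglc2 and Iglc3 UMIs of each of the 1175 B cells, with 1 added and a small random shift, on log axes; colours are libraries, the line marks equal counts, and circles mark the 5 cells with at least 100 Jchain UMIs. Most cells lie below the line (kappa) with some lambda UMIs, and the circled cells lie far to the right with 4071 to 21026 Igkc UMIs.

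The heat shock genes differed widely between the B cells of the libraries. Hspa1a, which encodes an inducible HSP70 chaperone, had 2492 UMIs in the control, 34 in the 15 min library and 4445 in the 60 min library, or 2039, 32.9 and 1726 CPM. The ratio of 15 min to control was 0.0162 (0.0112 to 0.0226) and that of 60 min to control 0.846 (0.806 to 0.889). Hspa1b, its near-identical neighbour, had 648, 22.3 and 709 CPM. Reads may be split between both copies, so they were also summed. In both genes the 15 min library stood apart from the 60 min libraries, which lay close together.

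The other chaperones were ordered in the same way. Hsp90aa1, the inducible HSP90, stood at 2131, 467 and 2058 CPM, a ratio of 0.219 for 15 min over control (0.198 to 0.242). Dnajb1, an HSP40 partner of HSP70, stood at 339, 65.9 and 437 CPM, and Hsph1 (HSP110) at 203, 32.0 and 306 CPM. Dnaja1 stood at 814, 351 and 995 CPM. The constitutive chaperones differed less: Hspa8 stood at 1739, 1136 and 2061 CPM and Hsp90ab1 at 1986, 1149 and 2129.8 CPM. Hspb1 (HSP27), which was not on the list but among the 8 genes lowest at 15 min, had 207, 7 and 694 UMIs, or 169, 6.78 and 269 CPM, and 81.1, 1.24 and 75.1 CPM without the cells that held many UMIs of other cell types or of Jchain.

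Of the 12 heat shock genes, 11 were measured, and Bag3, with 1, 3 and 12 UMIs, was not. At 15 min 6 of them were past 2-fold lower than in the control and 0 higher, beside 2.43% of all genes lower, and the median log2 ratio of the list was −1.21 (0.06 over all genes). Between 60 min and control 0 were past 2-fold (2.08% of all genes higher and 0.758% lower), with a median of 0.25. From 15 to 60 min 7 of 11 were past 2-fold higher, beside 4.72% of all genes. Without the cells that held other cell types' genes or Jchain, the medians were −1.33, 0.24 and 1.69, and Hspa1a stood at 2162, 26.1 and 1736 CPM.

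The neighbouring genes Hspa1a (chr17:34969190-34972156, minus strand, GRCm38) and Hspa1b (chr17:34956436-34959238, minus strand) are protein-coding. Heat shock factor 1 binds inverted repeats of GAA. Stretches of 60 bases upstream of each start, and of 80 bases upstream of Hspb1 (chr5:135887919-135889563, plus strand), are shown because these genes had the lowest 15 min to control ratios of the chaperones and carry such a repeat. Sequences are from RefSeq (GRCm38.p6), 5′ to 3′ on the gene's strand, and capitals mark the repeat.
Hspa1a chr17:34972227-34972286 (minus): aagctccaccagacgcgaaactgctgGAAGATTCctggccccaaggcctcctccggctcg
Hspa1b chr17:34959309-34959368 (minus): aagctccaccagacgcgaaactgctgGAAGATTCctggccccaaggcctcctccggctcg
Hspb1 chr5:135887776-135887855 (plus): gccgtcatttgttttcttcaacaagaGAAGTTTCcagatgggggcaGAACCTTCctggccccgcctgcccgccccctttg

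The repeat begins 104 bases before the annotated start in Hspa1a and Hspa1b (position −104), and at −117 and −97 in Hspb1. The 250 bases upstream of Hspa1a and Hspa1b are identical at 247 positions (98.8%). The letters GAANNTTC or TTCNNGAA, each its own reverse complement so that both strands are covered, and counted also where they overlap, occur in the 250 bases upstream of 6 of the 9 heat shock list genes in the promoter table. These are Hspa1a, Hspa1b, Hsph1, Dnaja1, Hspd1 and Hspe1. Hspd1 and Hspe1 lie on opposite strands and share 1 stretch with 3 matches (chr1:55088033-55088102). With Hspa1a and Hspa1b near-identical, the 6 genes are thus not 6 separate sequences. Dnajb1, Hspa5 and Bag3 did not hold the letters, although Dnajb1 was past 2-fold lower at 15 min. Hspa8, Hsp90aa1 and Hsp90ab1 were not matched. Among all 27025 genes with a promoter there, 14.5% hold the letters in a promoter, as did 2 of 14 matched receptor signalling genes, 3 of 17 immediate early genes and 0 of 13 B cell transcription factors. A match describes the letters and is not a binding site.

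**Figure D4:**
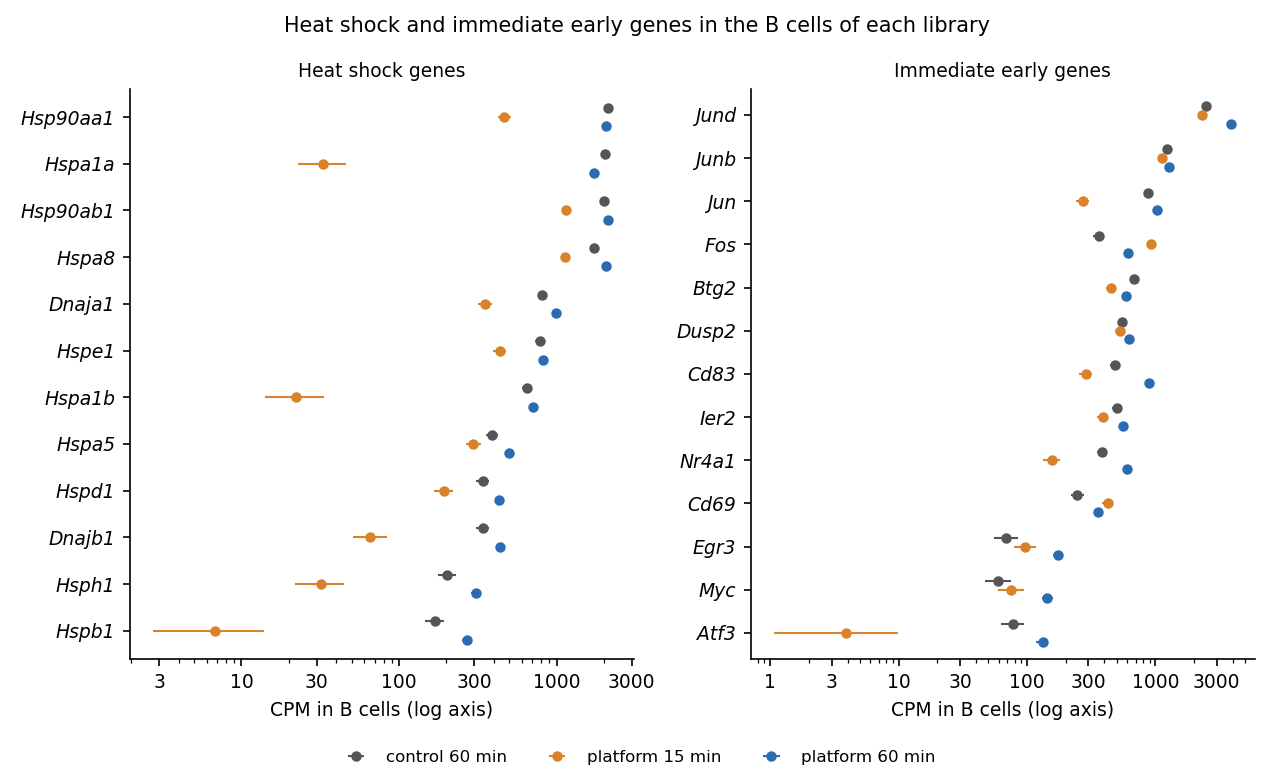
Levels of 12 heat shock genes (the 11 measured list members and Hspb1, without Bag3) and 13 immediate early genes in CPM (log axis) over the summed B cells of each library, with exact Poisson 95% intervals for counting error; 1 point is 1 library. Every heat shock gene drawn is lowest at 15 min (Hspa1a at 32.9 CPM against 2039 and 1726), while among the immediate early genes Fos and Cd69 are highest there.

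The heat shock RNA was not spread evenly over the B cells. With each cell thinned to 1000 UMIs, a UMI of Hspa1a or Hspa1b was found in 105 of 301 control cells, 34.9% (29.5 to 40.6%), in 10 of 241 cells of the 15 min library, 4.15% (2.01 to 7.50%), and in 250 of 614 of the 60 min library, 40.7% (36.8 to 44.7%). The median cell held 0 in all 3 libraries, but the cell at the 95th percentile held 15 in the control, 0 in the 15 min library and 14 in the 60 min library. The tenth of the cells with the most, 30 in the control and 61 at 60 min, held 60.8 and 61.4% of these UMIs. At 1000 UMIs per cell, most B cells of the 60 min libraries thus showed none, and a minority held most of these UMIs. A cell without a UMI at this depth may still hold the RNA.

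In a separate thinning the B cells were grouped by their own Hspa1a and Hspa1b UMIs. Cells with 3 or more made up 24.6% of the control (74 cells) and 24.6% of the 60 min library (151 cells), against 0.415% at 15 min (1 cell). These cells were also high in other chaperones. In the control their mean Hsp90aa1 was 6.07 UMIs per thinned cell against 0.897 in the 195 cells without a UMI of either gene, and at 60 min 4.78 against 1.15 in 370 cells. Dnajb1 had 1.22 against 0.0872 and 1.28 against 0.132, and Hspa8 3.92 against 1.09 and 4.01 against 1.22.

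The same cells held more RNA of some immediate early genes. Jun, a subunit of the AP-1 factor, had a mean of 2.66 against 0.246 UMIs in the control and 2.56 against 0.432 at 60 min. Fos, its partner, had 0.946 against 0.169 and 1.15 against 0.270. Depth differed little: the median B cell before thinning held 3612 UMIs with 3 or more of the heat shock UMIs and 3651 without in the control, and 3761 and 3634 at 60 min. The mitochondrial share was 6.21 and 6.58% in the control and 6.24 and 6.03% at 60 min. Cd79a had 2.27 against 2.85 UMIs and 2.17 against 2.34, and Ly6d 1.20 against 1.34 and 1.19 against 1.21. Cd79b went the other way, with 1.23 against 1.07 and 0.907 against 0.622. The proximal tubule list had a mean of 4.07 against 4.09 UMIs in the control and 1.74 against 3.46 at 60 min, and its part in these differences was not tested. These values describe cells of the same library, which are not replicates, and the high cells were chosen on Hspa1a and Hspa1b. In the 15 min library, where 235 of 241 cells had none, Hsp90aa1 had a mean of 0.340, below the 0.897 and 1.15 of the cells without an Hspa1a or Hspa1b UMI in the control and 60 min libraries.

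T cells of the same libraries showed a like pattern, and macrophages did not go as low at 15 min. Either gene was detected in 50.6% of 170 thinned control T cells (42.8 to 58.3%), 5.98% of 117 from the 15 min library (2.44 to 11.9%) and 44.2% of 443 from the 60 min library (39.6 to 49.0%). In macrophages the shares were 62.4% of 785 (58.9 to 65.8%), 54.4% of 125 (45.3 to 63.3%) and 86.4% of 1430 (84.5 to 88.1%). In the control the interval of the B cells lay below those of both other types. At 15 min the B and T cell intervals overlap and both lie below that of the macrophages.

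**Figure D5:**
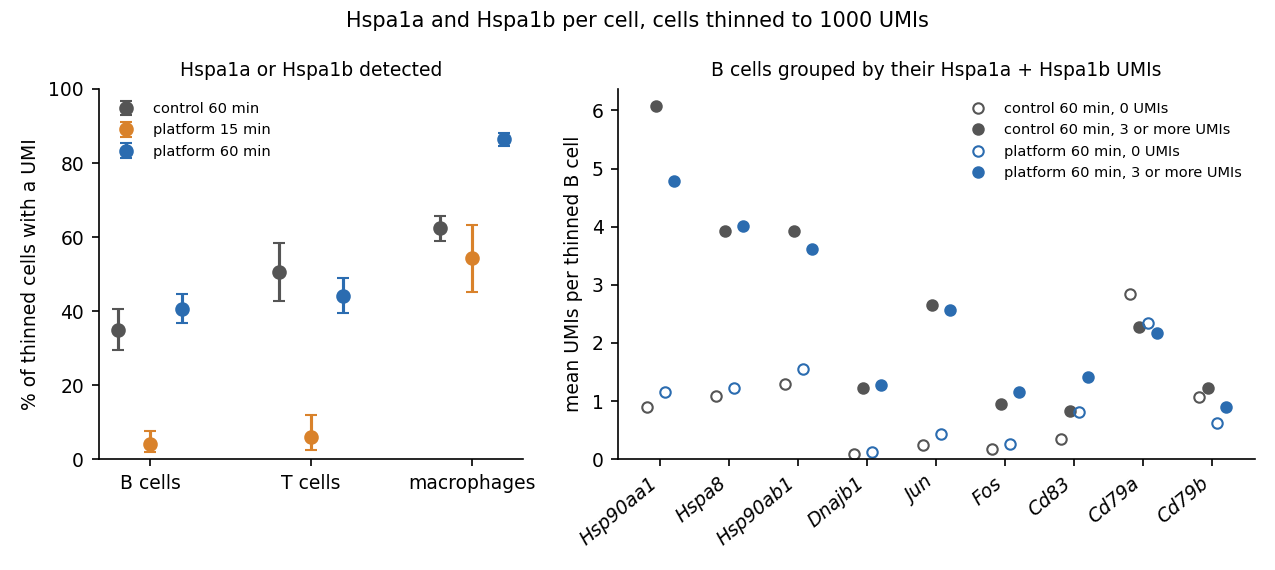
Left, percentage of cells thinned to 1000 UMIs that held a UMI of Hspa1a or Hspa1b, in B cells, T cells and macrophages of each library, with exact binomial 95% intervals. Right, mean UMIs per thinned B cell of 9 genes in cells without Hspa1a and Hspa1b (open) and with 3 or more of their UMIs (filled), in the 2 libraries digested for 60 min. B cells at 15 min sit at 4.15% against 34.9 and 40.7%, and the filled points lie above the open ones for the chaperones, Jun, Fos and Cd83.

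The immediate early genes did not share a direction. At 15 min Fos stood at 919 CPM in B cells, against 361 in the control and 608 at 60 min, a ratio of 2.55 for 15 min over control (2.27 to 2.86). Jun went the other way, with 877, 272 and 1022 CPM in control, 15 min and 60 min, a ratio of 0.310 (0.271 to 0.354). Cd69, an early surface marker of lymphocyte activation, had 246, 424 and 356 CPM. The highest of the 3 values was thus at 15 min for Fos and Cd69 and at 60 min for Jun.

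Other members were lowest at 15 min. Nr4a1, a nuclear receptor induced by antigen receptor signals, had 382, 156 and 596 CPM, and Atf3, a stress-induced repressor, 77.7, 3.87 and 132 CPM. Cd83, which activated B cells display, stood at 482, 287 and 884 CPM and was found in 33.9, 20.7 and 53.7% of thinned B cells, against 0.375% of proximal tubule cells. Jund, the most constitutive AP-1 member, stood at 2458, 2315 and 3854 CPM and Junb at 1235, 1131 and 1270.3 CPM. At 60 min Cd83 and Jund were thus above both other libraries.

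Of 22 immediate early genes measured at 15 min against the control, 1 was past 2-fold higher (Fos; 2.47% of all genes) and 3 lower (Jun, Nr4a1 and Atf3; 2.43% of all genes), with a median log2 ratio of −0.28. At 60 min against the control 3 of 23 were past 2-fold higher (Fosb, Egr3 and Myc; 2.08% of all genes) and 0 lower, with a median of 0.53. Egr3, a zinc finger factor downstream of calcium signals, stood at 68.7, 96.9 and 175 CPM, and Myc, a driver of growth, at 59.7, 75.6 and 144 CPM. From 15 to 60 min 7 of 23 were past 2-fold higher (4.72% of all genes), with a median of 0.85. Without the cells that held other cell types' genes or Jchain these medians were −0.04, 0.46 and 0.49.

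The difference in Fos at 15 min was seen in B cells and macrophages and not in T cells. After thinning, a Fos UMI was found in 19.9% of control B cells (15.6 to 24.9%), 44.8% of those of the 15 min library (38.4 to 51.3%) and 31.8% of those of the 60 min library (28.1 to 35.6%). T cells held it in 34 of 170, 23 of 117 (19.7%, 12.9 to 28.0%) and 120 of 443 cells (27.1%, 23.0 to 31.5%). Macrophages held it in 48.5, 69.6 (60.7 to 77.5) and 78.5% (76.3 to 80.6%). Cd69 had the same order in B cells, with 17.3, 30.3 and 26.1%, while in T cells it was found in 34 of 170, 23 of 117 and 89 of 443 cells. With 1 library per condition, the difference between cell types was not tested.

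Several genes of cell death and survival were lowest at 15 min. Of 7 measured, 2 were past 2-fold lower at 15 min than in the control (2.43% of all genes), both proapoptotic BH3-only genes: Bcl2l11 (BIM), with 91.6, 28.1 and 66.0 CPM, and Pmaip1 (NOXA), with 58.1, 28.1 and 66.0 CPM. Mcl1, a prosurvival member, had 501, 403 and 392 CPM. Bcl2, also prosurvival, went the other way, with log2 ratios of 0.72 for 15 min over control and −0.92 for 60 over 15 min. Between 60 and 15 min 4 of 7 were past 2-fold higher (4.72% of all genes), with a median log2 ratio of 1.20. These were Bcl2l11, Pmaip1 and the prosurvival genes Bcl2a1b, with 168, 90.1 and 217 CPM, and Bcl2a1d, with 37.6, 23.2 and 58.6 CPM, which are near-identical copies whose reads may be split. Interferon-stimulated genes were low, apart from Ifi27l2a, with 362, 377 and 354 CPM. Between 60 min and control 1 of the 6 interferon genes measured was past 2-fold higher (2.08% of all genes), Bst2, with 42.5, 49.4 and 103 CPM, and without the cells that held other types' genes it stood at 39.6, 54.7 and 53.3 CPM. Between 60 and 15 min 3 of 6 were past 2-fold higher (4.72% of all genes): Bst2, Irf7, a regulator of type I interferon, with 43, 6 and 76 UMIs in the 3 libraries, and Isg15, a ubiquitin-like protein, with 12, 3 and 52 UMIs. Without the cells that held other types' genes or Jchain the log2 ratios were 1.70 for Irf7, 2.23 for Isg15 and −0.04 for Bst2. Of the cell cycle list, 2 genes were measured at 15 min against the control and 0 were past 2-fold (2.47% of all genes higher and 2.43% lower).

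Across all genes, most of the largest differences between the B cells of the libraries were in RNA of other kidney cells. Between 15 min and control 114 of 4615 genes (2.47%) were past 2-fold higher and 112 (2.43%) lower. The 8 highest at 15 min included transporters of the proximal tubule, among them Slc17a1 with 15, 75 and 53 UMIs in control, 15 min and 60 min, and Slc22a6 with 39, 142 and 56. The other 6 were Slc13a1, Amn, Ces2c, Slc22a8, Nat8 and Cgref1. The 8 lowest were S100a9, S100a8, Hspa1a, Gzma, Ccl5, Hspa1b, Hspb1 and Grasp. S100a8 and S100a9, alarmins of granulocytes, had 296 UMIs in the control B cells, all in 1 cell. Gzma and Ccl5, of cytotoxic lymphocytes, were at 0 UMIs at 15 min. Gzma, Ccl5 and Nkg7 together had 138 UMIs in the control, 117 of them in 1 cell.

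Grasp, a scaffold protein of membrane receptors, had 51, 1 and 160 UMIs and was found in 11.4, 0.408 and 15.6% of B cells, so that its level did not rest on a few cells. Between 60 min and control 126 of 6065 genes (2.08%) were past 2-fold higher and 46 (0.758%) lower. The highest were Igha, for which 1 cell accounts, then Serpina1d, Cd300lg, Wfdc15b, Gpihbp1, Adgrl4, Gng11 and Umod. The lowest included S100a8, S100a9, Igkv6-15, Cndp2, Crisp3, Nkg7 and Ephx2. Igkv6-15, a kappa variable gene, had 67, 2 and 5 UMIs. Without the cells that held other types' genes or Jchain it had 4, 2 and 5 UMIs. Its log2 ratio of 60 min over control then moved from −4.25 to −0.55, so most of its control UMIs were in the removed cells. The 60 min against 15 min comparison held 283 genes past 2-fold higher (4.72% of 5991) and 251 lower (4.19%).

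The RNA of other cell types in the B cells was measured with their marker lists. The 12 proximal tubule genes summed to 5545, 14285 and 3937 CPM, but the median B cell gave them 0.159, 0.212 and 0.175% of its UMIs. Cells in which they reached 1% numbered 17, 26 and 19 and held 71.3, 88.5 and 58.2% of the proximal tubule UMIs of the B cells. Kap, an androgen-regulated tubule protein, stood at 3373, 10145 and 2011 CPM in all B cells, and at 762, 1070.0 and 813 CPM without these cells and those below. The 8 endothelial genes, all past 2-fold higher at 60 min than in the control (2.08% of all genes), summed to 101, 54.2 and 545 CPM. In the 3 libraries 2, 1 and 23 cells with at least 0.1% of such UMIs held 91.9, 91.1 and 93.8% of them. The distal nephron list summed to 63.0, 28.1 and 224 CPM, and Umod, of the thick ascending limb, had 16, 5 and 332 UMIs.

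Macrophage, dendritic and erythrocyte lists were low in the B cells. C1qa, C1qb and C1qc, limited by the rule, had 35, 39 and 19 UMIs in all 1175 cells, Csf1r 8 and Adgre1 13. Apoe, on the macrophage list and also made elsewhere in kidney, accounted for most of it with 431, 275 and 337 CPM. The 5 erythrocyte genes summed to 4.91, 12.6 and 2.72 CPM, and the 8 dendritic genes to 4.91, 0.969 and 10.9 CPM.

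B cells with little of some of these other RNAs were defined after the values were seen. They held less than 1% proximal tubule and 0.1% endothelial UMIs and no S100a8 or S100a9. They also held fewer than 3 UMIs of Gzma, Ccl5 and Nkg7, and fewer than 100 of Jchain. They numbered 284 of 307, 218 of 245 and 571 of 623. The distal nephron list was not part of this definition. These cells kept 15, 5 and 324 Umod UMIs in control, 15 min and 60 min, so the set is not free of other types' RNA. Among these cells, genes past 2-fold higher at 15 min than in the control numbered 46, and those higher at 60 min numbered 69. The part of doublets or of free RNA in the other differences was not tested.

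The same gate found few B cells in the mammary tumours of the series, from MMTV-PyMT mice aged 10 weeks and filtered at 4000 genes and 25% mitochondrial UMIs. There were 5 of 5736 control cells (0.0872%, 0.0283 to 0.203%), 3 of 5802 cells of the 15 min library (0.0517%, 0.0107 to 0.151%) and 4 of 6024 of the 60 min library (0.0664%, 0.0181 to 0.170%). All 5, 3 and 4 held Ly6d UMIs. The kidney shares of 2.92 to 6.27% lay above these intervals in every library, and the tissues also differ in mouse line, age, sex and filter.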

How the data were processed

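The authors made the deposited counts with Cell Ranger 3.1.0 on mm10, as UMI counts per gene and cell, and joined the libraries with an aggregation step that evened sequencing depth. Cells were assigned to libraries by barcode suffix. The raw counts were used as deposited, with the study's own limits on genes (200 to 3000 in kidney) and mitochondrial UMIs (50%). The gene limit was the single step against doublets, and no doublet caller was run. Over the B cells of each library UMIs were summed and scaled to CPM; ratios were taken on log2(CPM + 1) for genes with at least 50 UMIs in the libraries compared, and a gene was counted as past 2-fold by size alone. Ratios given with an interval are plain CPM ratios. Shares carry exact Clopper-Pearson intervals, CPM exact Poisson intervals and differences of shares Newcombe intervals, all at 95% and all for counting error. Cells were thinned at random to 1000 UMIs where shares of cells with a UMI were compared.

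The members and gene lists were chosen with earlier results of these data known. Named genes were the gate genes and Ly6d, up to 4 members of each list with the most UMIs (or members needed to report levels at or near 0), the 8 highest and 8 lowest genes of the 15 min and 60 min comparisons with the control, and the 12 leading genes by variance and against T cells. Some genes that these rules name are not reported here. Other list members were named after their values were seen. On simulated counts, 4-fold changes were recovered for 99.5, 98.0 and 95.5% of changed genes in the 15 min to control, 60 min to control and 60 to 15 min comparisons (4417, 6124 and 5936 genes). Of the unchanged genes 23, 23 and 25 were past 2-fold. These Poisson counts came from 1 pooled profile, and the changed genes met a higher count limit than the real calls. They leave out the spread between cells, so the shares do not measure recovery in the real data. Alternatives covered the gate, the cell limits, thinning, scaling, pseudocount, gene filter and removal of cells. Analyses used Python 3.11.15 with numpy 2.4.6, scipy 1.17.1 and pandas 2.3.3.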

Additional observations from a re-analysis of the deposited data

How the results depend on the processing

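With 1 library per condition no difference has a replicate check, and depth limits single genes to the floors given above. No paired analysis was possible because each condition is 1 library and the labels give no replicate numbers. Of the alternative values computed, 288 stayed within the limits set for them, 64 moved and 2 changed sign from a median past 2-fold (smaller medians that changed sign count as moved or within limits), and the cause was not tested where none is named.

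The share of B cells in the control, 15 min and 60 min libraries was 4.30, 2.45 and 5.19% with no upper limit on genes, which adds cells to the denominator. A planned gate on other genes is not reported here. A mitochondrial limit of 25% gave 4.16% at 15 min and 6.86% at 60 min, with a 15 min to control ratio of 0.718. Thinned cells gave 0.360 B cells per macrophage at 60 min. Lambda shares at a limit of 90% were 4.61, 4.08 and 4.03%.

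Counts of genes past 2-fold depended most on the filter. In the order 15 min over control higher and lower, 60 min over control higher and lower, and 60 over 15 min higher and lower, they were 318, 267, 344, 166, 555 and 505 with a filter of 20 UMIs, and 1135, 1115, 1207, 533, 1578 and 1092 with none. Thinned B cells gave 22, 38, 40, 13, 112 and 69. Without cells holding 3 proximal tubule UMIs or a granulocyte UMI, which left 44, 11 and 43 cells, they were 12, 27, 21, 6, 38 and 12. A pseudocount of 10 CPM gave 62, 73, 78 and 15 for the comparisons with the control and 130 for 60 over 15 min lower. Without cells holding other types' genes or Jchain, chosen after seeing the data, 15 min over control higher was 46, 60 min over control higher 69 and 60 over 15 min lower 103.

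The median log2 ratio of the light chain list, 15 min over control, was 0.76 in the set of 44, 11 and 43 cells and 0.73 without cells sharing a barcode, which also gave 0.63 for 60 min over control. That of the immediate early list, 15 min over control, was 0.28 in the same small set, against −0.28 in all B cells. The proximal tubule list changed sign for 60 over 15 min, from −1.39 to 3.18 in the small set and to 0.14 without cells holding other types' genes or Jchain. Both sets were chosen on proximal tubule UMIs, so these changes follow at least in part from the choice. The small set also held 11 cells at 15 min, each with fewer than 3 proximal tubule UMIs, so its value rests on very few counts.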
